A study of Drosophila melanogaster with 22 samples.

Results

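AP-2, fd96Ca, fd96Cb, lbl and unc-4 are 5 transcription factor genes of Drosophila melanogaster whose transcripts stood far higher in the leg imaginal disc than in the wing disc. They were taken by name from tables of transcript levels, as 5 of 13686 genes with a name that occurs once, and they were chosen by their FPKM in leg disc against wing disc. The leg disc against wing disc difference therefore describes how they were chosen and is no finding. The embryo and pharate values were not the measure of choice, but they too were known when the genes were picked, so they are given as a description as well.

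Imaginal discs are sacs of epithelium in the larva from which the adult appendages form, and myoblasts of the future muscles lie on that epithelium. Leg and wing discs become ventral and dorsal appendages, and the haltere disc becomes the dorsal appendage of the last thoracic segment. Transcription factors read by these discs set where along the limb, and on which side of it, joints, bristles and muscles form. AP-2 encodes a protein of the TFAP2 family that flies need for leg growth and leg joints. The genes fd96Ca and fd96Cb encode forkhead proteins of the FoxB class and lie side by side. The ladybird gene lbl encodes an NK homeodomain protein known from embryonic muscle and heart cells and from leg myoblasts. The paired-like homeodomain protein of unc-4 is known from neurons, and its worm counterpart sets the synaptic inputs of motor neurons.

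The 9 RNA samples were whole OregonR embryos, collected 2 to 4 h, 6 to 8 h or 16 to 18 h from egg laying, and appendages of a y;cn,bw,sp strain. The larval tissues were T3 leg, haltere and wing discs of the third instar, and the adult ones were the T3 leg, haltere and wing of pharate adults at stage P14, formed flies still inside the pupal case. All were unmanipulated tissue of these strains, with no treatment named in the labels. Each tissue had 1 value per gene, made from 2 replicates, in FPKM (fragments per kilobase of transcript, scaled to the mapped fragments), which is a level per transcript length. No spread between replicates can be had from 1 value, so no test was run and no p-value is given. For the same reason it cannot be said which neighbours in an order of levels differ beyond their spread. Embryo, disc and pharate tables were made separately, and ratios were taken within a table.

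Ratios are log2((FPKM + 1)/(FPKM + 1)), and a gene was counted as apart at 2-fold or more where it had at least 5 FPKM in either tissue. Depth was not given. Upper quartiles of a column ran from 141 to 174 FPKM, and 22.8% to 39.5% of genes were listed at 0 in a column. Some of those zeros concern genes that cells of the tissue use, since the translation factor gene eIF-4a was at 0 in all 3 discs and at 11655 FPKM in the pharate haltere, and the myosin gene Mhc was at 0 in all 3 pharate columns. A value of 0 is therefore given as listed at 0, with no fold.

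The tissue labels were set beside markers. The leg genes Sp1, btd and dac were listed at 784, 217 and 467 FPKM in the leg disc, and the wing selector gene vg at 2.76. In the wing disc vg was at 314 and the dorsal selector gene ap at 756. Ubx, the Hox gene of the last thoracic segment, was at 319, 332 and 6.06 for leg, haltere and wing disc. Scr, a Hox gene of the labial and first thoracic segments, was at 36.4 in the column labelled T3 leg disc, and at 64.2 beside 59.0 for Ubx in the pharate leg. The tissue label names the T3 leg for both, but the title of the leg disc RNA sample names no segment. Whether that sample held legs of other segments was not tested.

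**Figure D1:**
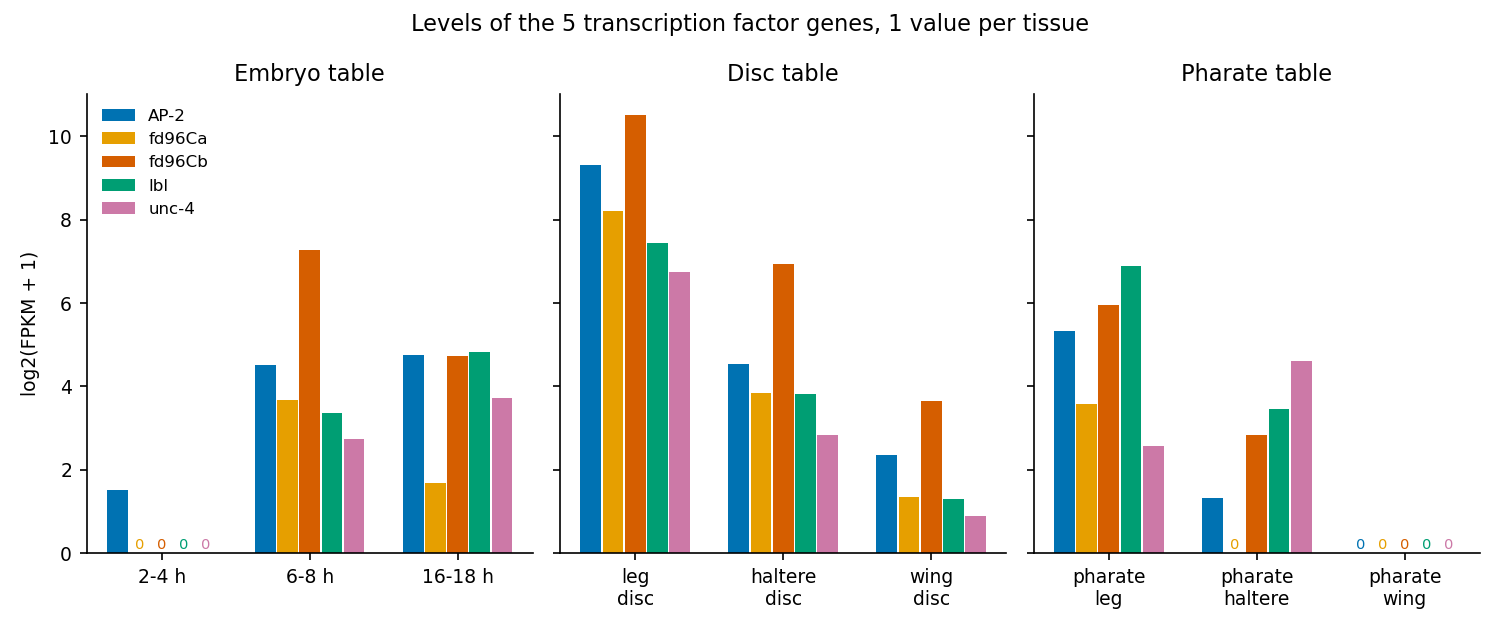
Levels of the 5 genes as log2(FPKM + 1), by tissue or stage, in the embryo, disc and pharate tables; each bar is 1 deposited value and a printed 0 marks a gene listed at 0. In the disc table every gene is highest in the leg and lowest in the wing disc, and in the pharate table unc-4 is highest in the haltere.

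The leg disc held the highest level of each gene. AP-2 was listed at 640.05, 22.3 and 4.08 FPKM for leg, haltere and wing disc (log2 ratio of leg over wing 6.98). The level of fd96Cb was 1453, 122 and 11.6 in the same order (6.85). Its neighbour fd96Ca was lower throughout, at 296, 13.5 and 1.53 (6.88). Both forkhead genes thus had the same order of tissues, and the fd96Cb level was 4.91, 9.09 and 7.61 times that of fd96Ca in leg, haltere and wing disc.

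The homeobox genes followed the same order. The level of lbl was 173 FPKM, 13.0 and 1.46 for leg, haltere and wing disc (log2 ratio of leg over wing 6.15). That of unc-4 was 106, 6.18 and 0.850 (5.86). Within each of the 3 discs the order of the genes was fd96Cb, AP-2, fd96Ca, lbl and unc-4, from high to low.

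Among all genes of the leg disc, fd96Cb stood at rank 379 and AP-2 at rank 967 of 13686. By contrast unc-4, the lowest of the set, stood at rank 4543 there, so a large ratio went with a moderate level. Among genes above 0 in both discs and with at least 10 FPKM in either, the 5 genes were at places 3, 4, 5, 7 and 9 by ratio of leg over wing. The leg fate genes Sp1 (place 2) and btd (place 6), the T-box gene H15 (place 8, log2 ratio 6.11) and CG6414 (place 1, 7.18) stood among them without being members. Ubx followed at place 10 and Lim1 at place 11 (5.26).

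All 5 genes were at least 2-fold higher in the leg than in the wing disc, where 10.7% of 8321 genes were and 3.55% were lower. They were also at least 2-fold higher in the leg than in the haltere disc, as were 3.24% of 8529 genes, while 12.6% were lower. Both comparisons use the leg disc column by which the genes were chosen, so nothing is read from these counts. The ratios of leg over haltere disc were smaller than those over wing disc, with log2 values of 4.78 for AP-2, 4.36 for fd96Ca, 3.90 for unc-4, 3.63 for lbl and 3.56 for fd96Cb. Across all genes tested the median was 0.05 for leg over wing and 0.01 for leg over haltere.

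**Figure D2:**
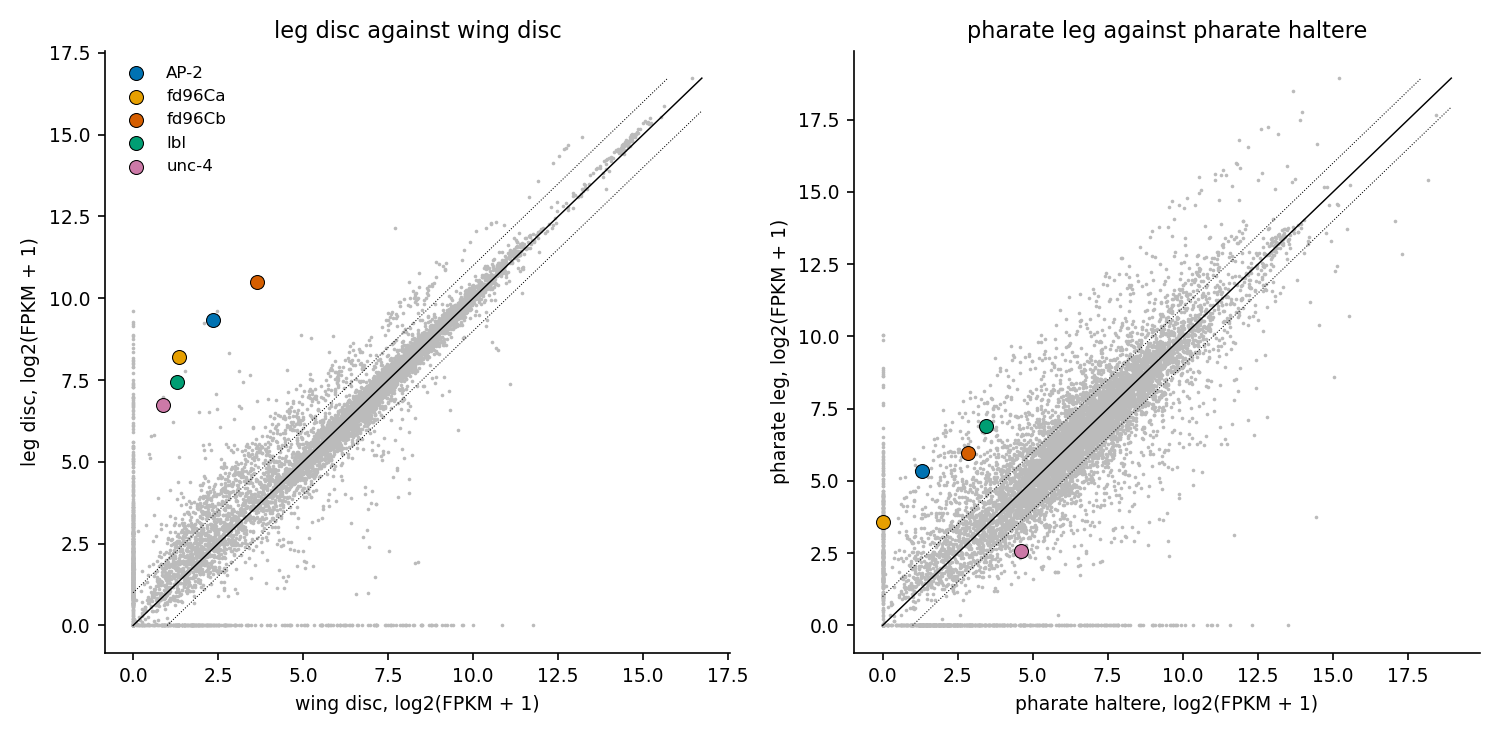
Levels of all genes (grey) and of the 5 genes (coloured) as log2(FPKM + 1), leg disc against wing disc on the left and pharate leg against pharate haltere on the right, with lines of equal level (solid) and of 2-fold difference (dotted). The 5 genes lie above the lines on the left, and on the right unc-4 lies below them at 4.96 FPKM in leg and 23.5 in haltere.

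The haltere disc lay between leg and wing disc for each gene. All 5 were at least 2-fold higher in the haltere than in the wing disc, as were 15.5% of 8577 genes, while 4.29% were lower. This comparison shares its wing disc column with the one that chose them. The log2 ratios were 3.29 for fd96Cb, 2.52 for fd96Ca, 2.51 for lbl, 2.20 for AP-2 and 1.96 for unc-4, and the last was 0.93 with a pseudocount of 5 FPKM, below the 2-fold mark. As a share of the leg disc level, the haltere disc held 3.49% of AP-2, 4.55% of fd96Ca, 5.82% of unc-4, 7.53% of lbl and 8.42% of fd96Cb. The wing disc held 0.517% of fd96Ca, 0.637% of AP-2, 0.800% of fd96Cb, 0.801% of unc-4 and 0.841% of lbl.

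Several leg genes outside the set had shares of like size. The haltere disc held 2.17% of the leg disc level of Sp1, 5.27% of btd, 3.79% of Lim1, 2.67% of H15 and 5.86% of Scr, and the wing disc 0.579%, 0.880%, 0.817%, 0.664% and 1.06%. Other genes of the leg axis differed from these, with 26.4% of the leg disc level of Dll, the gene of distal limb fate, and 64.1% of that of the homeobox gene al in the wing disc. For dac, mid, disco and disco-r the wing disc held 6.36%, 4.87%, 4.84% and 3.56%, and the haltere disc 4.74%, 6.58%, 8.40% and 4.85%. Whether haltere and wing disc samples held some leg tissue was not tested. In bulk tissue, fewer cells of a type and less RNA per cell cannot be told apart.

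**Figure D3:**
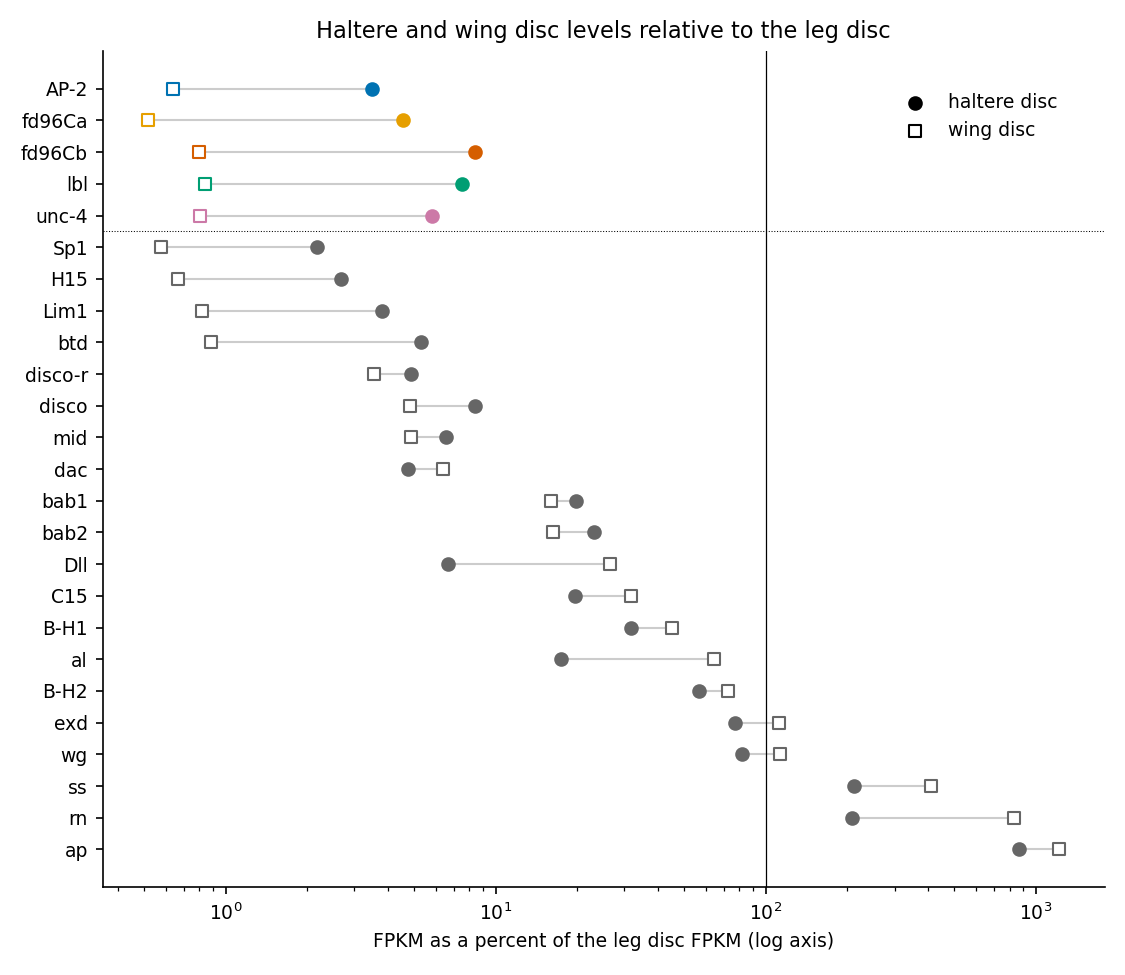
Haltere disc (filled circles) and wing disc (open squares) levels as a percent of the leg disc level, on a log axis, for the 5 genes (top) and for the other genes of the lists of leg proximodistal and ventral leg genes; hth, listed at 0 in the wing disc, is not drawn. The 5 genes lie between 0.517% and 0.841% in the wing disc and between 3.49% and 8.42% in the haltere disc, beside Sp1, H15, Lim1 and btd.

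Markers of larval tissues other than discs also differed between these columns. The summed level of 6 fat body genes was 4253 FPKM, 15199 and 1189 for leg, haltere and wing disc. All 6 were at least 2-fold higher in the leg than in the wing disc, which is the direction of the 5 genes. All 6 were also higher in the haltere than in the wing disc (median log2 ratio 3.67), again as the 5 genes were. Between leg and haltere disc all 6 were lower in the leg, which is opposite to the 5 genes. Of 10 genes of muscle structure, 9 were higher in the leg than in the wing disc. The remaining gene, wupA, was at 356 in the wing disc and listed at 0 for leg and haltere, and that 0 is not read as a low level. Against the haltere disc 9 of 9 were lower in the leg disc, and 9 of 10 were higher in the haltere than in the wing disc (median 3.36). The part of other tissue in the ratios between discs was not tested.

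Lists of leg genes were set beside the 5 genes in leg over wing disc, the contrast that chose the 5. The lists were made with earlier results of these data known, so their counts are a description. Of 5 ventral leg genes other than the forkhead pair, 4 were at least 2-fold higher in the leg than in the wing disc and 0 lower. Over all genes 10.7% were higher and 3.55% lower. The median log2 ratio of the ventral genes was 4.24, against 0.05 for all genes above 0 in both discs. The 4 were H15 and mid, both T-box genes, and disco and disco-r, which encode zinc finger proteins of ventral appendages, while the Wnt ligand gene wg was within 2-fold at 177 and 199 FPKM. Of 5 dorsal leg genes, 0 were higher and 4 lower in the leg disc (median -1.83), among them the T-box genes Doc1 (64.4 against 232), Doc2 (35.7 against 141) and Doc3 (37.1 against 163). Of 16 leg proximodistal genes, 10 were higher and 3 lower (median 1.64 for those above 0 in both discs). Among the 10 was hth, counted at 118 against a listed 0.

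Genes of leg joints and Notch signalling, the setting in which AP-2 is best known in the leg, differed less. Of 17 such genes other than AP-2, 5 were higher and 1 was lower in the leg than in the wing disc, and 11 were within 2-fold (median 0.23). Among the 5 higher was the bHLH-PAS gene dys, which acts at tarsal joints, listed at 81.2 and 27.6. The others were odd (95.9 and 41.9), sob (250 and 111), HLHm7 (534 and 255) and E(spl) (753 and 335). The 1 lower was the POU gene nub, a gene of wing pouch and leg joints, at 80.5 and 315. Notch itself was at 256 and 303.

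Few relatives of the 5 genes reached 5 FPKM in leg or wing disc. Of 15 other forkhead genes in the tables, 5 reached 5 FPKM in leg or wing disc, and 2 of them were higher in the leg disc, the pair slp1 (32.7 against a listed 0) and slp2 (11.2 against a listed 0). Of 5 other genes of the NK homeobox cluster, 2 were tested and both were higher in the leg disc, namely lbe (8.98 against a listed 0) and C15 (199.8 against 63.6), a gene of the leg tip. Of 17 other paired-like genes, 3 were tested, of which OdsH (14.8 against a listed 0) and the glial gene repo (9.30 against 0.539) were higher and al (522 against 335) was within 2-fold.

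Neighbouring genes on the chromosome were then compared, since 3 of the loci hold related genes side by side. In RefSeq's gene order AP-2 lies on chromosome arm 3L, fd96Ca, fd96Cb and lbl on 3R and unc-4 on X, with lbe next to lbl and OdsH, a duplicate of unc-4 known for its part in hybrid sterility, next to unc-4. Among the 2 protein-coding genes on each side, 15 genes outside the set were matched to the tables and 12 were tested. Of these, 2 were higher in the leg than in the wing disc, lbe and OdsH, and 10 were within 2-fold, with log2 ratios from -0.22 to 0.38. The genes on either side of AP-2, EMC10 (named CG32441 in the tables, 741 against 569.9 FPKM) and S1P (29.1 against 32.4), were among those within 2-fold. So were CG11920 beside fd96Ca (206 against 212) and raskol beside unc-4 (named CG15816 in the tables, 10.0 against 8.07).

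**Figure D4:**
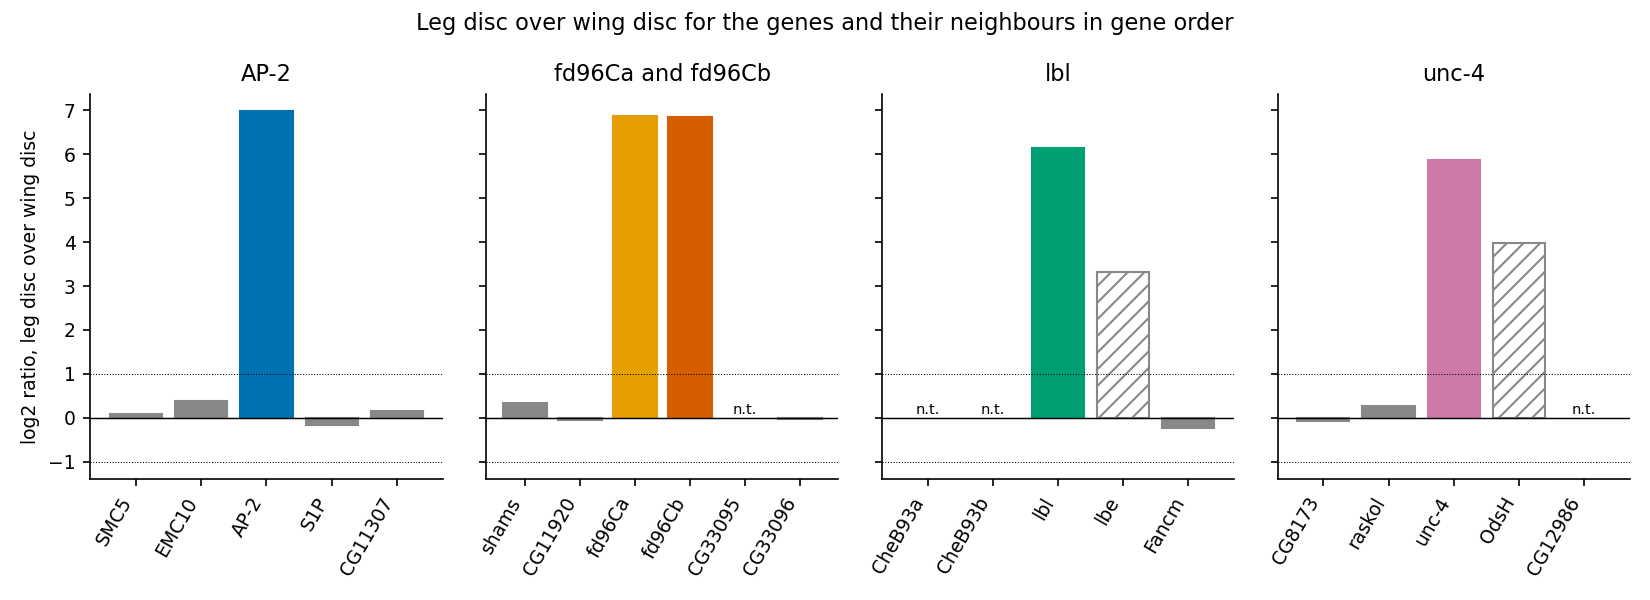
Log2 ratio of leg over wing disc for the 5 genes (coloured) and the 2 protein-coding genes on each side in RefSeq's gene order, by current symbol; dotted lines mark 2-fold, n.t. a gene under 5 FPKM in both discs or not matched. Hatched bars are lbe and OdsH, listed at 0 in the wing disc, whose heights depend on the pseudocount and are no fold.

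Within each related pair 1 gene was far above the other. The level of lbl was 19.3 times that of lbe in the leg disc, 4.73 times in 6 to 8 h embryos and 78.9 times in the pharate leg. There lbe was at 8.98, 1.98 and 1.49 FPKM, the embryo and pharate values being under the 5 FPKM minimum. In the other 6 columns lbe was listed at 0. The level of unc-4 was 7.15 times that of OdsH in the leg disc, 5.80 times in the pharate haltere and 4.76 times in 16 to 18 h embryos. There OdsH was at 14.8, 4.06 and 2.55 FPKM, the pharate and embryo values being under the same minimum. OdsH was thus listed above 0 in 3 columns, which were the highest columns of unc-4 in each of the 3 tables.

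In pharate adults 4 of the 5 genes again had their highest listed level in the leg. The level of lbl was 118 FPKM in the pharate leg and 9.98 in the haltere, and it was listed at 0 in the wing. For fd96Cb the values were 61.0 and 6.19, for AP-2 39.5 and 1.503, and for fd96Ca 11.1 and a listed 0, again with a listed 0 in the wing for each. From high to low the order in the pharate leg was lbl, fd96Cb, AP-2, fd96Ca and unc-4. These 4 were counted as at least 2-fold higher in the leg than in the haltere, as were 17.1% of 9044 genes. For fd96Ca that was against a listed 0. All 4 were counted as higher in the leg than in the wing, each against a listed 0. In that comparison 21.7% of 9011 genes were higher and 14.7% lower. A listed 0 is not read as a low level in these counts. Between haltere and wing 3 genes were tested and all 3 were higher in the haltere, each against a listed 0, as were 20.3% of 8990 genes, while 18.8% were lower. The log2 ratios of leg over haltere were 4.01 for AP-2, 3.43 for lbl and 3.11 for fd96Cb, against a median of 0.01 for all genes above 0 in both.

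The gene unc-4 differed from the others at this stage. Its values were 4.96 FPKM, 23.5 and a listed 0 for pharate leg, haltere and wing (log2 ratio of leg over haltere -2.04). In this comparison 14.3% of genes were at least 2-fold lower in the leg. OdsH was also highest in the haltere, at 4.06 beside a listed 0 for leg and for wing. Thus the pharate haltere, and not the leg, held the highest unc-4 level, while in the discs the leg level was 17.2 times the haltere level.

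Markers of neurons, the cells in which unc-4 is known, were summed in the same columns. The 15 genes together reached 1230 FPKM, 2029 and 945 for pharate leg, haltere and wing, and 44.0 to 49.4 in the 3 discs. Of 13 tested between pharate leg and haltere, 3 were higher and 2 were lower in the leg (median -0.07). The 2 lower ones, which share the direction of unc-4, were nrv3 (443 and 1127), which adds most to the haltere sum, and futsch (32.5 and 117). Of those higher, elav was at 43.1 and 13.3. The synaptic genes n-syb (248 and 261) and Syt1 (159 and 222) were within 2-fold, and Gad1, of inhibitory neurons, was listed at 0 in both. Their part in the unc-4 difference was not tested.

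Muscle markers stood higher in the pharate leg, as lbl did. Of 8 genes of muscle structure tested between leg and haltere, 7 were higher in the leg (median log2 ratio 4.42) and wupA was listed at 0 there, with summed levels of 392841 FPKM, 20543 and 36210 for leg, haltere and wing. Of 11 markers of adult muscle progenitors other than lbl, 7 were higher in the leg than in the haltere and 0 lower (median 1.55). Among the 7 were Mef2, the factor of muscle differentiation, at 339 and 100.3, and Him, at 7.11 against a listed 0. In discs the same progenitor list had 1 gene higher and 2 lower in the leg than in the wing disc (median -0.54). The 2 lower were Him, an inhibitor of muscle differentiation, at 35.4 and 155, and sns, at 5.43 and 12.8. The factor of mesoderm, twi, was within 2-fold at 85.8 and 137. The 1 higher gene was lbe, at 8.98 FPKM against a listed 0. Between leg and haltere disc 3 of 13 progenitor markers were higher in the leg and 0 lower (median 0.50). Among those 3 was lbe, again against a listed 0. The part of muscle and progenitor cells in the lbl differences of discs and pharate appendages was not tested.

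In embryos the 5 genes had their highest listed level at different stages. At 2 to 4 h AP-2 was at 1.86 FPKM and the other 4 were listed at 0, as were 39.5% of all genes. At 6 to 8 h fd96Cb was at 154, AP-2 at 21.8, fd96Ca at 11.7, lbl at 9.37 and unc-4 at 5.73. All 5 were counted as at least 2-fold higher than at 2 to 4 h, as were 25.9% of 8244 genes, and 4 of them against a listed 0, while 18.9% of genes were lower.

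From 6 to 8 h to 16 to 18 h the genes parted. The forkhead pair was lower at the later stage, fd96Cb at 25.4 FPKM (log2 ratio -2.55) and fd96Ca at 2.22 (-1.98), as 31.1% of 10173 genes were. The level of lbl was 27.2, higher than at 6 to 8 h (1.44), as for 34.7% of genes. AP-2 at 26.2 (0.26) and unc-4 at 12.1 (0.96) were within 2-fold. The unc-4 value lies at the mark, and it passed 2-fold with a pseudocount of 0.1 FPKM (1.07) and with columns scaled to one upper quartile (1.20) or one median (1.36).

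The rest of the families did not share a direction across these embryo stages. Of 14 other forkhead genes tested, 2 were higher and 6 lower at 16 to 18 h than at 6 to 8 h (median -0.86, against -0.43 for all genes above 0 in both). Of 13 other paired-like genes 4 were higher and 3 lower (median 0.50), and of 4 others of the NK cluster 0 were higher and 2 lower (median -1.41). Of the genes counted as higher, 1 forkhead gene and 2 paired-like genes were against a listed 0. Neuronal markers were higher in 11 of 14 cases at 16 to 18 h, 1 of them against a listed 0, and muscle structure genes in 8 of 10. The other 2 muscle genes, Mhc and up, were listed at 0 at 16 to 18 h, and that 0 is not read as a low level. Between 2 to 4 h and 16 to 18 h, 4 of the set reached 5 FPKM. All 4 were counted as higher at the later stage, 3 of them against a listed 0. In that comparison 41.2% of 10190 genes were higher and 33.5% lower.

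Genes with the most similar profile were sought over all 9 columns, by Pearson's r of log2(FPKM + 1) after the mean of each table was taken off, among 8140 genes with at least 10 FPKM in a disc. The 9 points share libraries and tables, and the leg disc against wing disc difference that chose the genes is part of them, so r is a description. For AP-2 the 3 most similar genes were Sp1 (r = 0.98), Lim1 (0.97) and the Hox gene Scr (0.97). For lbl they were Sp1 (0.97), AP-2 (0.96) and Scr (0.95), and for fd96Cb Sp1 (0.95), Scr (0.94) and the Pax gene gsb-n (0.94). For fd96Ca they were pxb (0.96), AP-2 (0.95) and disco (0.94). By Euclidean distance pxb stood only at place 42, and it varied less, at 181, 79.1 and 49.6 FPKM in leg, haltere and wing disc.

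The list for unc-4 held none of the genes named for the other 4 members. Its 3 most similar genes were CG5022 (r = 0.91), CG5171 (0.89) and its neighbour OdsH (0.86). CG5022 varied far less, at 19.6, 15.1 and 10.4 FPKM in leg, haltere and wing disc, and stood only at place 269 by Euclidean distance. CG5171 was listed at 104, 50.2 and 7.72 FPKM in leg, haltere and wing disc and at 14.9, 232 and 4.34 in the pharate leg, haltere and wing, so it too was highest in the leg disc and in the pharate haltere. Of the other 4 members, lbl was most like unc-4 (0.83) and fd96Ca least (0.69). Among those 4, r ran from 0.85 for fd96Ca with lbl to 0.96 for AP-2 with lbl, and the neighbours fd96Ca and fd96Cb had 0.92.

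**Figure D5:**
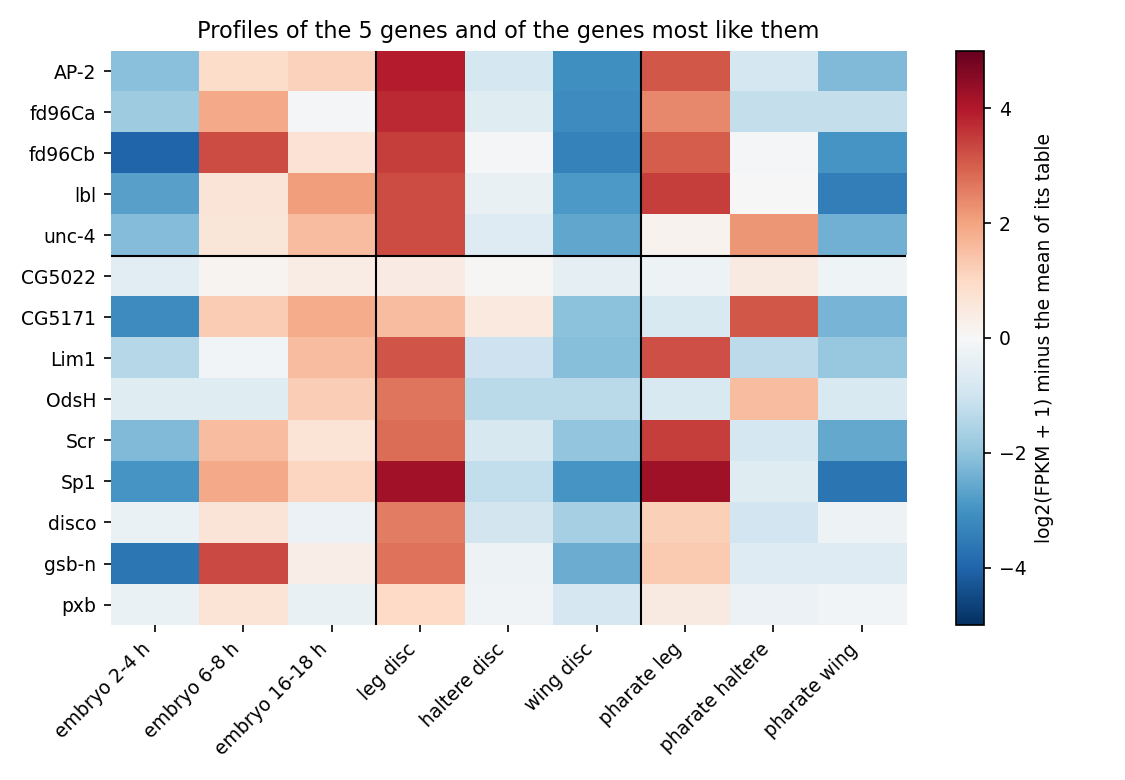
Heat map of log2(FPKM + 1) minus the mean of its table, for the 5 genes (above the line) and the genes most like them (below), over the 9 columns; red is above and blue below the table mean, and vertical lines part the tables. AP-2, fd96Ca, fd96Cb and lbl are red in leg disc and pharate leg, while unc-4, OdsH and CG5171 are reddest in the pharate haltere within that table.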

How the data were processed

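The values used were FPKM per gene in 3 deposited tables, per the file headers, with 1 value for each of 9 tissues or stages from 2 replicates per the labels. TopHat 1.1.4, Cuffdiff, Bowtie 0.12.3, CASAVA 1.7, MACS2 and dm3 are named in the submitters' processing notes, with no roles given. The authors' scaling of columns, the annotation and the depth are not given in the sources used here, and low values did not fall on steps of whole reads. Of 13934 entries, 248 with 77 repeated names were left out.

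Ratios, counts and correlations were computed in Python 3.11.15 with pandas 2.3.3 and NumPy 2.4.6 and checked on simulated data. The members and lists were chosen with earlier results of these data known. Genes named were the members, lbe, OdsH, the tissue markers, up to 3 genes of each list furthest apart between leg and wing disc, and the 3 genes most like each member. Not every gene picked from a list in this way is named, and the fat body genes are given only as a group. Other genes named, and the neighbours, were chosen after their values were seen. Current symbols and gene order came from RefSeq (Release 6). AP-2 was matched to TfAP-2 (CG7807), since genes of the adaptor complex of the same name stand in the tables as alpha-Adaptin, AP-2sigma and AP-50. Shared reads between fd96Ca and fd96Cb, and between other paralogs, could not be checked. FAIRE peak lists were not analysed here, because no annotation of dm3 was at hand to place the genes.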

Additional observations from a re-analysis of the deposited data

Results flagged for a closer look

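The contrast of leg and haltere had opposite directions for unc-4 at the 2 stages. The log2 ratio was 3.90 for leg over haltere disc (106 against 6.18 FPKM) and -2.04 for pharate leg over pharate haltere (4.96 against 23.5). With 1 value per tissue the difference was not tested. Of 184 genes at least 2-fold higher in the leg than in the haltere disc and tested at both stages, 26 (14.1%) were at least 2-fold lower in the pharate leg and 72 (39.1%) were higher. Over all 9044 genes tested between pharate leg and haltere, 14.3% were lower and 17.1% higher, so the share that turned direction was near that of all genes. The 184 come from the 7578 genes tested at both stages, a smaller set whose own shares were not computed. Besides unc-4, the 26 included bab1, which patterns the tarsus, and CG5171.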

How the results depend on the processing

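Of 104 values for 26 member ratios under other pseudocounts and scalings, 100 stayed on their side of 2-fold and 0 turned direction. The exceptions were both for unc-4. Its ratio of 16 to 18 h over 6 to 8 h embryos, 0.96, was 1.07 with a pseudocount of 0.1 FPKM, 1.20 with upper quartile scaling and 1.36 with median scaling. Its ratio of haltere over wing disc, 1.96, was 0.93 with a pseudocount of 5 FPKM. Median scaling moved the median of all genes by 0.43 between the later embryo stages, 0.57 between the first and last and 0.15 between the earlier ones, and upper quartile scaling by 0.26 and 0.29 for the first and second of these. Of 72 counts of genes apart, 71 stayed within 1.5 times, and with no filter on low values 493 genes instead of 276 were higher in the leg than in the haltere disc. By Euclidean distance, 1 of the 3 genes most like fd96Ca was kept, 2 of 3 for AP-2 and for unc-4, and 3 of 3 for fd96Cb and for lbl. No paired analysis was possible because each tissue has 1 column for both replicates, and no replicate could be left out. Peak alternatives were not run, as no annotation of dm3 was used here.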
